A study of Mus musculus with 99 samples.

Results

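The heat shock protein and DnaJ genes are described here over 3 tissues of wild-type mice. They were taken by symbol from the deposited count table: every symbol made of Hsp followed by a, b, d, e, h or 90 and a number or letters, every Dnaja, Dnajb and Dnajc gene with a number, and Cryab. This gave 73 of the 35870 genes of the table. They comprise 14 of the Hsp70 group (with Hsph1), 3 of the Hsp90 group, 2 chaperonin genes, 9 small heat shock protein genes, 4 DnaJA, 13 DnaJB and 26 DnaJC genes, and 2 genes for proteins that bind heat shock proteins, Hspbp1 and Hspbap1. No expression value entered this choice. Hspb11 is counted among the small heat shock protein genes by its name.

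Polyadenylated RNA was sequenced from gastrocnemius (a calf muscle), quadriceps (a thigh muscle) and the whole spinal cord. The mice were male, of the strain C57BL/6, and were perfused with saline before the tissue was frozen. The 9 groups are 3 tissues by 3 kinds of mouse: 10-month sedentary mice, 18-month sedentary mice, and exercised mice of 18 months. All mice were wild type, and what the exercise consisted of is not described. Gastrocnemius and cord had 10, 10 and 13 libraries in these groups and quadriceps 10, 9 and 12, 97 in all. Each library has a number in its title, such as 6.3, that recurs across tissues. The labels do not say that a number marks an animal or that libraries are separate animals, so p-values measure the spread between these libraries, which may be partly technical.

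Heat shock proteins are molecular chaperones, which hold, fold or refold other proteins. Hsp70 proteins bind exposed hydrophobic stretches in cycles driven by ATP. DnaJ proteins (also called Hsp40) bring clients to Hsp70 and trigger its ATPase, while Hsph1 and its relatives exchange the nucleotide and reset the cycle. Hsp90 completes the folding of kinases and receptors, the chaperonin Hspd1 with its lid Hspe1 folds proteins inside mitochondria, and small heat shock proteins hold unfolding proteins without using ATP. In striated muscle, Cryab, Hspb1, Hspb6, Hspb7 and Hspb8 are abundant and associate with the contractile filaments, desmin and filamin. Under heat or other protein damage the factor HSF1 binds repeats of the 5-base unit nGAAn, called heat shock elements, and switches on Hspa1a, Hspa1b, Hsph1, Dnajb1 and other members.

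Deposited counts summed to 29.33 to 49.09 M per library in cord, 30.56 to 62.77 M in gastrocnemius and 29.06 to 46.54 M in quadriceps. The libraries farthest from their tissue's mean over all genes were 3.1 and 2.2 (both sedentary, 10 months) in gastrocnemius, 3.1 in quadriceps, and 5.2 and 6.1 (both sedentary, 18 months) in cord. Results that rest on them are given with and without them. The labelled tissues were checked against their markers. At 10 months, 10 skeletal fibre genes summed to medians of 188593 and 188491 CPM (counts scaled to the TMM library size) in the muscles and 331 CPM in cord, and 7 neuron genes to 3.34, 2.13 and 7545 CPM. A gene was called when its Benjamini-Hochberg adjusted p over all genes tested was under 0.05 in edgeR's quasi-likelihood test, the source of every adjusted p below unless another tool is named. Of the members, 66 passed the filter on low counts in each muscle and 68 in cord. Dnajb7, Dnajb8, Dnajc22 and Hspb9 passed in no tissue, Dnajb3, Dnajb13 and Dnajc6 in cord alone, and Hspb3 in the muscles alone. In whole tissue, fewer cells of a type and less RNA per cell cannot be told apart.

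The muscles and the cord differed most in which chaperone family was abundant. In TPM, the deposited unit that divides counts by gene length and scales each library to the same sum, the small heat shock proteins were the largest family in muscle, with summed medians of 3725 TPM in gastrocnemius and 3815 TPM in quadriceps, against 741 TPM in cord. In cord the Hsp70 and Hsp90 families led, with 3528 and 3128 TPM, against 1556 and 1246 TPM in gastrocnemius. All members together took 0.824% of TPM in gastrocnemius, 0.832% in quadriceps and 1.04% in cord (medians over libraries).

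Among the small heat shock proteins, Hspb6, an actin-associated chaperone of muscle, had the highest level of all members in both muscles. Its level was 1259.9 TPM (range 1025 to 1821, n = 33) in gastrocnemius, 1343 TPM (range 1133 to 1759.7, n = 31) in quadriceps and 24.1 TPM (range 19.4 to 32.4, n = 33) in cord. Cryab (alpha B-crystallin), which protects desmin and titin, stood at 1036 TPM (range 806 to 1708, n = 33), 1152 TPM (range 933 to 1709.7, n = 31) and 556 TPM (range 439 to 739, n = 33), and was the only small heat shock protein among the 4 most abundant members of the cord. Hspb8, which works with the cochaperone Bag3 in the disposal of damaged filament proteins, followed with medians of 775, 690.2 and 85.1 TPM. Hspb7, a filamin-binding protein of heart and skeletal muscle, had 299 and 221 TPM in the muscles and 1.28 TPM in cord. For the partner genes Hspb2 and Hspb3, whose proteins form a complex in muscle, the medians were 51.3 and 56.4 TPM in gastrocnemius and 2.84 and 0.524 TPM in cord. Hspb1, which caps actin filaments, had medians of 232, 230.5 and 78.3 TPM. For each of these 7 genes the highest cord library lay below the lowest muscle library. The share of all genes so separated was not computed, and 92.1% of all genes tested were called between cord and the muscles at 10 months. The order within gastrocnemius was Hspb6, Cryab, Hspb8, Hspb7, Hspb1, with overlapping ranges between each neighbouring pair.

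**Figure D1:**
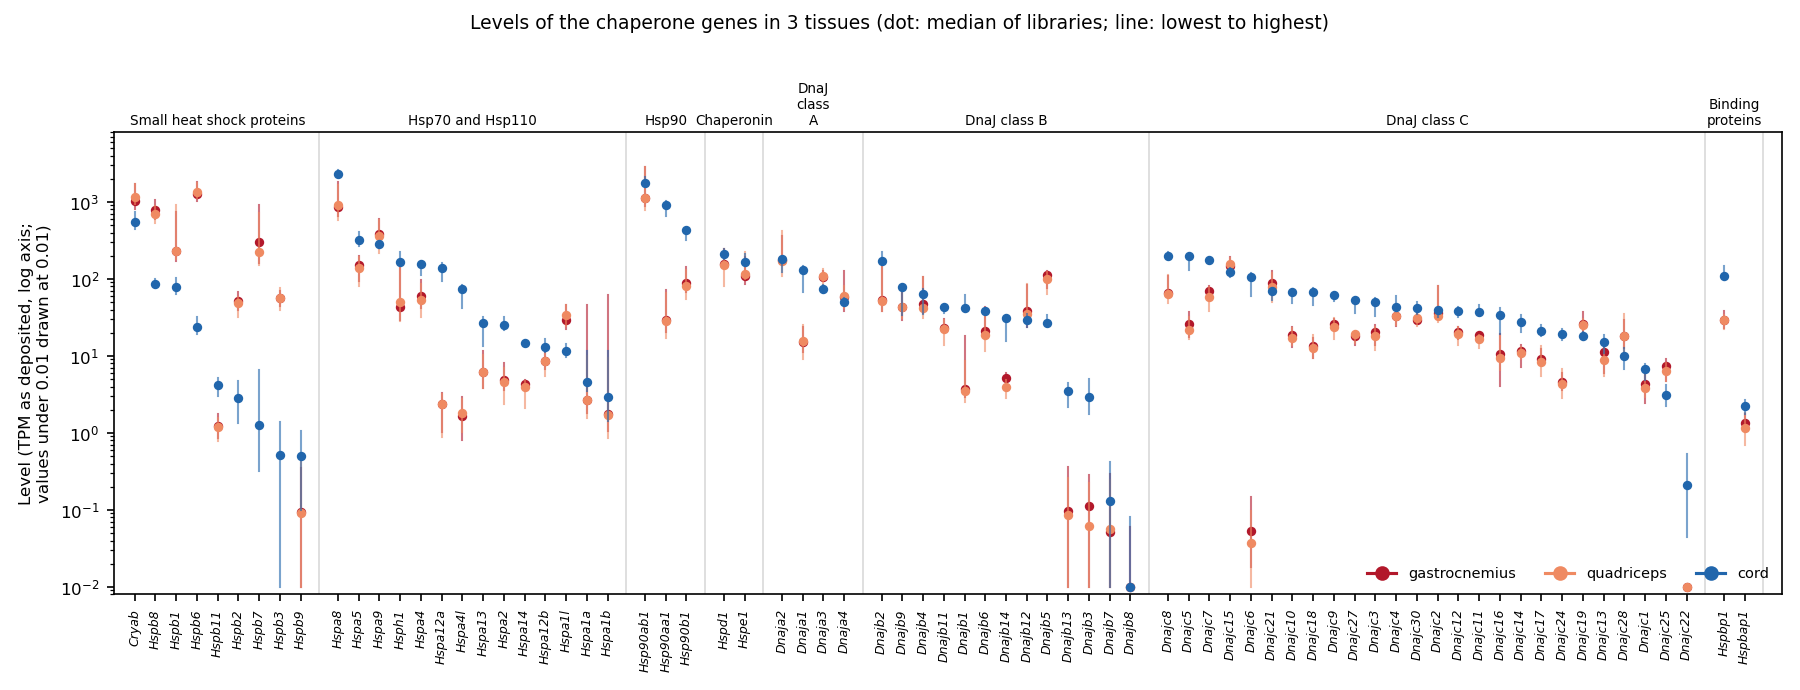
Levels of the members in the 3 tissues, by family. Each dot is the median and each line the lowest to highest library in TPM on a log axis (values under 0.01 are drawn at 0.01); Hspb6, Hsp90ab1 and Cryab have the 3 highest medians in both muscles, and Hspa8, Hsp90ab1 and Hsp90aa1 in cord.

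In the Hsp70 family the constitutive cytosolic Hspa8 was highest in every tissue, with 861 TPM (range 661 to 1802, n = 33) in gastrocnemius, 909 TPM (range 589 to 1675, n = 31) in quadriceps and 2298 TPM (range 2124 to 2595, n = 33) in cord. The mitochondrial Hspa9 stood at medians of 378, 363 and 281 TPM, and Hspa5, the Hsp70 of the endoplasmic reticulum (BiP), at 150.1, 139.6 and 320.02 TPM. Cord levels were many times those of muscle for Hspa12a, an atypical relative (2.38, 2.4 and 140.1 TPM), and for Hspa4l, an exchange factor (1.64, 1.8 and 73.6 TPM). Of the related exchange factors, Hspa4 had medians of 59.7, 52.8 and 156 TPM. Hsph1 had 43.2 TPM (range 29.1 to 150.1, n = 33), 50.03 TPM (range 28 to 161, n = 31) and 167 TPM (range 147 to 225, n = 33), so that single muscle libraries reached cord levels. Of the stress-inducible pair, Hspa1a had medians of 2.7, 2.67 and 4.57 TPM and Hspa1b of 1.76, 1.73 and 2.93 TPM. These 2 genes share 58.81% and 62.31% of their 50-base stretches, so the division of reads between them is uncertain.

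Both cytosolic Hsp90 genes were abundant in cord, but only 1 was in muscle. Hsp90ab1, the constitutive form, had medians of 1129.6, 1106 and 1779.9 TPM. Hsp90aa1, the inducible form, had 29.2, 28.7 and 915 TPM. Hsp90b1, the form of the endoplasmic reticulum, had 89.5, 81.3 and 428 TPM. Sequence shared with other loci makes the levels of Hsp90aa1 (58.51% of its 50-base stretches), Hspb1 (51.65%), Hspa8 (51.43%) and Hspd1 (44.78%) uncertain too. The chaperonin Hspd1 and its lid Hspe1 differed little by comparison, with 157, 149.98 and 212 TPM and 108, 117 and 165 TPM.

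Among the DnaJ cochaperones, the genes of the stress response were low in muscle. Dnajb1, the main inducible partner of Hsp70, had medians of 3.74, 3.51 and 41.9 TPM, and Dnaja1, its farnesylated relative, 15.1, 15.6 and 132 TPM. Dnajb5 was the reverse, with 112, 99.7 and 27.1 TPM, and Dnaja4 had 58.9, 60.4 and 50.6 TPM. Dnajc6 (auxilin), which strips clathrin from synaptic vesicles together with Hspa8, had 105 TPM in cord and 0.053 and 0.037 TPM in muscle. Dnajc5 (cysteine string protein), which protects vesicle fusion proteins at nerve terminals, had 25.8, 21.8 and 196 TPM. Dnajb6 and Dnajb4, a suppressor of aggregation mutated in a limb girdle muscular dystrophy and a heart-enriched relative of Dnajb1, had 20.9, 18.5 and 38.9 TPM and 47.6, 42.4 and 62.8 TPM. Dnajb9, a cochaperone of BiP, had 42.8, 43.7 and 77.8 TPM.

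Cord was tested against the mean of both muscles in sedentary 10-month mice, where 92.1% of all 19735 genes tested were called. With TMM scaling 62 of 69 tested members were called, 19 up and 43 down in cord. With libraries scaled by their total counts alone, an alternative chosen after the data were seen, 61 were called, 41 up and 20 down. The median of all genes was 0.40 and 1.54 on the log2 scale under these 2 scalings, a shift of 1.135. Directions are therefore given only for the 39 members called the same way under both. Of these, 19 were higher and 20 lower in cord. Of the other 30, 26 differed in sign with the scaling and 4 were called under 1 scaling alone. The 92.1% of all genes belongs to the TMM fit. Shares of all genes called the same way under both, or differing in sign, were not computed. The counts over both scalings therefore do not set the members apart from other genes. TPM are relative to the sum of a library, so the higher TPM of Hspa8, Hsp90ab1, Hspa5, Hspd1 and Hspe1 in cord turn into lower values with TMM (log2 fold changes of -0.22, -0.99, -0.25, -1.04 and -1.10).

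All of Hspb1, Hspb2, Hspb3, Hspb6, Hspb7, Hspb8 and Cryab were lower in cord under both scalings, which is 7 of the 8 small heat shock protein genes tested. Hspb7 had a log2 fold change of -9.17 with TMM and -8.04 with library totals. The values of Hspb3, Hspb6, Hspb2 and Hspb8 were -8.24, -7.39, -5.89 and -4.68 with TMM. With library totals they were -7.12, -6.25, -4.74 and -3.54. Cryab, at -2.47 with TMM and -1.33 with library totals, was the least lowered of the 7. Of the Hsp70 family, 5 were higher in cord (Hspa12a, Hspa4l, Hspa2, Hspa13 and Hspa14) and 2 lower (Hspa1l and the mitochondrial Hspa9). Hspa12a had 4.47 with TMM and 5.61 with library totals and Hspa4l 3.97 with TMM and 5.11 with library totals. Hsp90aa1 (3.33 with TMM and 4.46 with library totals) and Hsp90b1 were higher. Among DnaJ genes, Dnajc6 had 9.36 with TMM and 10.49 with library totals, Dnajb13, a cilium gene, 3.92 with TMM and 5.02 with library totals, and Dnajb3 3.79 with TMM and 4.88 with library totals. These 3 passed the filter within cord alone, and Hspb3 within the muscles alone, so their direction here was fixed by the filter and the size of the fold depends on a level near 0 in the other tissue. Dnajb5 (-3.49 with TMM and -2.35 with library totals), Dnaja4 (-1.68 with TMM and -0.55 with library totals) and Dnajb12 were lower. Every adjusted p of these named values was under 0.05 in both fits.

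The muscles were compared with each other at 10 months. Of 66 members, 4 were called, 6.06%, where 10.9% of all genes were. Dnajb14, a cochaperone of the endoplasmic reticulum membrane, was higher in gastrocnemius (log2 fold change 0.18 ± 0.0527 (SE), adjusted p = 0.0149). Dnajc27, a small GTPase with a J domain, was lower (-0.23 ± 0.0497 (SE), adjusted p = 0.000659), as were the testis-type Hsp70 gene Hspa1l (-0.37 ± 0.11 (SE), adjusted p = 0.0187) and Hspe1 (-0.27 ± 0.0905 (SE), adjusted p = 0.042). Gm10501 on the opposite strand overlaps 71.9% of the exon bases of Hspa1l, whose count is therefore uncertain. Without library 3.1 of both muscles and gastrocnemius 2.2, 15 members were called, and 25 with limma and quality weights. The 10.9% of all genes belongs to the reported fit alone, so these 2 counts do not set the members apart from other genes.

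Exercised and sedentary mice were compared at 18 months. In quadriceps 3 of 66 members were called, all up with exercise, where 0.757% of all genes were called. They were the small heat shock protein genes Cryab and Hspb7 and the DnaJ gene Dnaja4. Cryab (chr9:50751325-50756636, plus strand, GRCm38) had a lowest, median and highest level of 557, 652 and 835 CPM in the 9 sedentary libraries. The 12 exercised libraries had 575, 911 and 1035 CPM, and 11 of them lay above the sedentary median and 9 above every sedentary library. Its log2 fold change was 0.41 ± 0.084 (SE), adjusted p = 0.0104. The sedentary 10-month libraries, at 597.4, 683 and 832 CPM, overlapped the sedentary 18-month range.

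Hspb7 (chr4:141420779-141425311, plus strand) had 188, 241 and 298 CPM in sedentary and 277, 409 and 588 CPM in exercised 18-month quadriceps. All 12 exercised libraries lay above the sedentary median and 11 above every sedentary library, with a log2 difference of 0.80 ± 0.181 (SE), adjusted p = 0.0234. At 10 months its range was 191, 275 and 799 CPM, the highest being library 3.1, with 303 CPM next. Dnaja4 (chr9:54698873-54716315, plus strand), a cytosolic partner of Hsp70, had 78, 91.3 and 109 CPM in sedentary and 91.8, 114 and 153 CPM in exercised libraries. All 12 lay above the sedentary median and 8 above every sedentary library (log2 fold change 0.37 ± 0.0743 (SE), adjusted p = 0.00895). The groups overlapped for all 3 genes. Library 3.1 is not in this contrast but enters the shared fit. Without it the log2 fold changes were 0.42, adjusted p = 0.0034 for Cryab, 0.81, adjusted p = 6.77e-05 for Hspb7 and 0.38, adjusted p = 0.0024 for Dnaja4. In a fit of the 18-month libraries alone with the first part of the library number as a term, Cryab and Dnaja4 were no longer called (adjusted p = 0.0933 and 0.066). That fit changed both the libraries and the term. The call of Hspb7 was lost in 2 of 31 fits that left out 1 library (log2 fold changes 0.75 to 0.85, highest adjusted p = 0.0557), those without sedentary 6.2 and without sedentary 7.4.

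**Figure D2:**
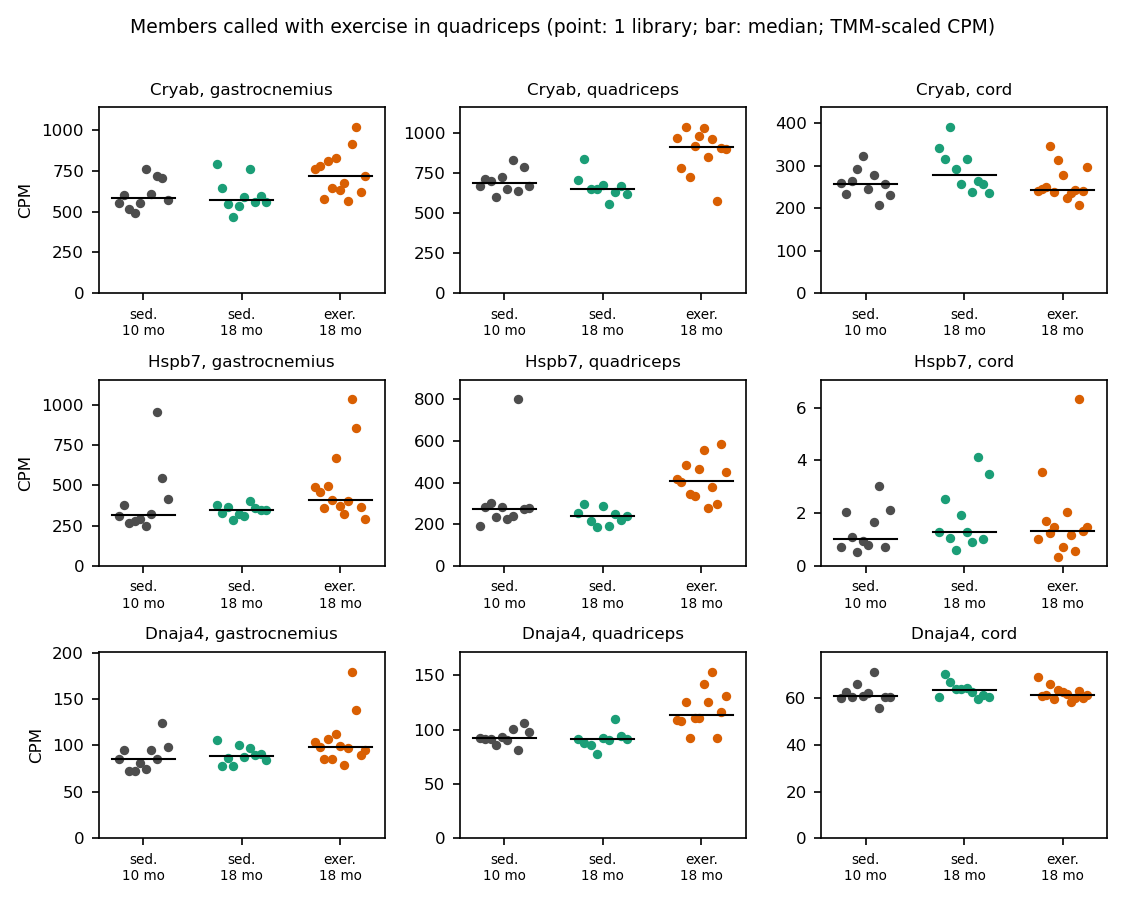
Cryab, Hspb7 and Dnaja4 in each library (points, TMM-scaled CPM) of the 3 tissues and 3 groups, with the group median as a bar. Exercised quadriceps libraries lie mostly above the sedentary 18-month ones (medians 911 and 652 CPM for Cryab), and the groups overlap.

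Small heat shock protein genes as a group had fitted rises in exercised quadriceps in 8 of 8 tested, with a median of 0.12, where the median of all genes tested was -0.0031, and 2 were called. Of all 66 tested members 43 were fitted up, as were 48.9% of all genes. Hspb6 had 754, 869.9 and 1271 CPM in sedentary and 727, 1135 and 1401 CPM in exercised libraries (log2 fold change 0.34 ± 0.103 (SE), adjusted p = 0.131) and was not called. Hspb2 and Cryab lie head to head on chromosome 9 and share 252 exon bases, 17.0% of those of Cryab. Hspb2 had a log2 fold change of 0.06 (adjusted p = 0.882). Dnaja4 shares 1581 exon bases, 44.1% of its own, with Wdr61 on the opposite strand, and Wdr61 had 0.03 (adjusted p = 0.915). The library kit does not mark strand, so reads in these overlaps cannot be assigned by strand. The counts of Cryab and Dnaja4 are uncertain to that extent.

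Slow fibre and endothelial markers were fitted higher in the same quadriceps libraries. The summed level of slow fibre markers was 629 to 1121 (median 953) CPM in sedentary and 752 to 1425 (median 1156) CPM in exercised 18-month libraries, with 8 of 8 genes fitted up and 0 called. That of endothelial markers was 197 to 255 (median 218) CPM in sedentary and 198 to 351 (median 259) CPM in exercised libraries, with 6 of 6 fitted up and 0 called. Their part in the rise of Cryab, Hspb7 and Dnaja4 was not tested.

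Gastrocnemius gave 0 called of 66 members with exercise, where 0.106% of all genes were called. At an unadjusted p under 0.05 there were 8 of 66 members, and 13.6% of all genes. DESeq2 also called 0, and limma with quality weights called 4, for which the share of all genes is not given here. Cryab had 469.7, 574 and 791 CPM in sedentary and 565, 716 and 1018 CPM in exercised libraries (log2 fold change 0.28 ± 0.0971 (SE), adjusted p = 0.188), Hspb7 0.54 ± 0.203 (SE), adjusted p = 0.227 for the same log2 ratio, and Dnaja4 0.23 ± 0.105 (SE), adjusted p = 0.322. In cord, 0 of 68 members were called, as were 0% of all genes, while 9 of 68 members and 13.5% of all genes had an unadjusted p under 0.05. DESeq2 and limma with quality weights also called 0 members. There Cryab had -0.17 ± 0.0846 (SE), adjusted p = 0.368, Hspb7 -0.05 ± 0.371 (SE), adjusted p = 0.952 and Dnaja4 -0.03 ± 0.0349 (SE), adjusted p = 0.67.

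The exercise effect was also compared between tissues in 1 fit. Between gastrocnemius and quadriceps 0 of 66 members differed by edgeR, as did 0% of all genes, and 0 by limma with quality weights. At an unadjusted p under 0.05 there were 2 of 66 members, and 2.31% of all genes. Between cord and the mean of the muscles 1 of 69 differed, where 0.887% of all genes did. This was Cryab, with a difference in effect of -0.51 ± 0.11 (SE), adjusted p = 0.00732 (-0.42, adjusted p = 0.0491 without the libraries standing apart). For Hspb7 the same difference was -0.72 ± 0.347 (SE), adjusted p = 0.284.

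Ageing changed few members in muscle. In quadriceps, 18 against 10 months in sedentary mice, 1 of 66 members was called, where 0.352% of all genes were. Dnajb4 (chr3:152178511-152210302, minus strand) had 61, 71.8 and 130.1 CPM in the 10 libraries at 10 months, the highest being 3.1 with 75.9 CPM next. At 18 months the 9 libraries had 49.6, 56.4 and 64 CPM, all below the 10-month median and 7 below every 10-month library. The log2 fold change was -0.42 ± 0.0983 (SE), adjusted p = 0.0459, and -0.30, adjusted p = 0.018 without library 3.1. The call was lost in 17 of 31 fits that left out 1 library. In gastrocnemius 0 of 66 members were called by edgeR, DESeq2 or limma with quality weights, where 0.153% of all genes were called by edgeR. At an unadjusted p under 0.05 there were 8 of 66 members, and 9.84% of all genes.

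The heat-inducible members had fitted falls with age in quadriceps. These 12 genes were Hspa1a, Hspa1b, Hspa8, Hsph1, Hsp90aa1, Hsp90ab1, Hspd1, Hspe1, Hspb1, Cryab, Dnaja1 and Dnajb1. Of them, Hspa8 and Hsp90ab1 are named constitutive above. They had a median log2 fold change of -0.29 with 12 fitted down and 0 called, where the median of all genes tested was -0.01. Of all 66 tested members 54 were fitted down, with a median of -0.07, and 45.5% of all genes were fitted up. Fitted falls were thus not confined to these 12. Without library 3.1 the median was -0.17, still with 12 fitted down. In gastrocnemius 9 were fitted down with a median of -0.09, which became 5 and 0.02 without 3.1 and 2.2. In cord 8 were fitted down with a median of -0.09, and 9 with -0.06 without 5.2 and 6.1. Of all tested members, 48 of 66 were fitted down in gastrocnemius and 37 of 68 in cord, where 42.7% and 52% of all genes were fitted up. Several of the 12 genes varied with Hsph1 from library to library, as given below, so these counts are not independent.

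Between gastrocnemius and quadriceps 0 of 66 members differed in the ageing effect by edgeR, as did 0% of all genes, and 0 by limma with quality weights. At an unadjusted p under 0.05 there were 2 of 66 members, and 1.5% of all genes.

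**Figure D3:**
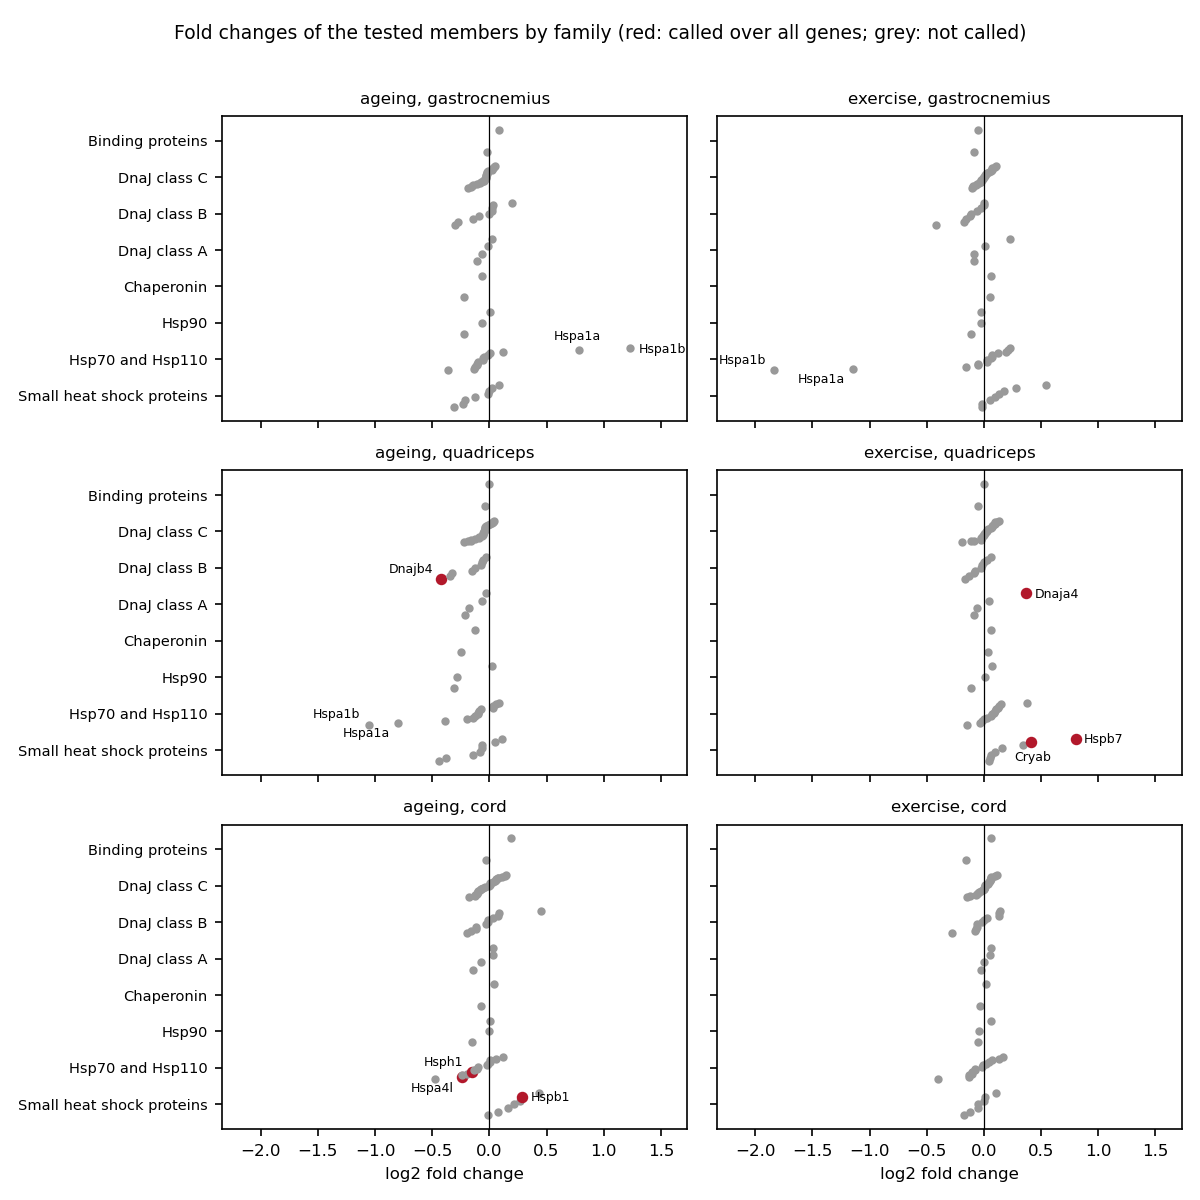
Log2 fold changes of the tested members (points, by family) for ageing and for exercise in each tissue, with called members in red and named. Called members are Dnajb4 in ageing quadriceps, Hspb1, Hspa4l and Hsph1 in ageing cord, and Cryab, Hspb7 and Dnaja4 in exercised quadriceps.

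In ageing spinal cord 3 members changed, Hspb1 upward and the exchange factors Hspa4l and Hsph1 downward, in the reported fit. These are 3 of 68 members, 4.41%, where 5.35% of all genes were called. DESeq2 called 9 members, limma with quality weights 10, and edgeR 1 without libraries 5.2 and 6.1. Leaving out 1 library at a time gave 1 to 10. The 5.35% of all genes belongs to the reported fit alone, so these counts do not set the members apart from other genes. Hspb1 (chr5:135887919-135889563, plus strand), which shares sequence with the pseudogene Hsp25-ps1, had 19, 21.3 and 26.5 CPM at 10 and 22.8, 27.5 and 32.6 CPM at 18 months. All 10 libraries at 18 months lay above the 10-month median and 5 above every 10-month library (log2 fold change 0.28 ± 0.0732 (SE), adjusted p = 0.0215). Without libraries 5.2 and 6.1 it was 0.22, adjusted p = 0.0784. Exercised 18-month cord had 21, 24.7 and 30.2 CPM, between the 2 sedentary medians and overlapping both groups.

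Hspa4l (chr3:40744495-40796103, plus strand) had 241, 265 and 285 CPM at 10 and 141, 239 and 253 CPM at 18 months, the lowest being 5.2. All 10 lay below the 10-month median and 5 below every 10-month library. Its log2 fold change was -0.24 ± 0.0651 (SE), adjusted p = 0.0269, and -0.15, adjusted p = 0.0436 without 5.2 and 6.1. Its call was lost in 7 of 33 fits that left out 1 library (log2 fold changes -0.26 to -0.18, highest adjusted p = 0.0787): 1.1, 1.2, 1.4, 2.3 and 3.3 at 10 months and 6.1 and 6.4 at 18 months. Hsph1 (chr5:149614287-149636376, minus strand) had 262, 272 and 356 CPM at 10 and 237, 258 and 283 CPM at 18 months, with 9 of 10 below the 10-month median (log2 fold change -0.15 ± 0.0446 (SE), adjusted p = 0.0385). Its highest 10-month library was 2.3, with 309.9 CPM next. Without 2.3 it was -0.12, adjusted p = 0.062, and without 5.2 and 6.1 -0.16, adjusted p = 0.0691. Its call was also lost without 1.2 alone and without 6.1 alone. Groups overlapped for all 3 genes.

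Some glial and neuron markers moved in the same libraries. The summed level of macrophage and microglia markers was 211 to 385 (median 223) CPM at 10 months, the highest being library 3.1 with 240.1 CPM next. At 18 months it was 279 to 335 (median 319) CPM in sedentary cord, and 6 of 7 were called up. That of oligodendrocyte markers was 21542.5 to 24906 (median 22932) CPM at 10 and 21984 to 25594 (median 23757) CPM at 18 months, with overlapping ranges. That of astrocyte markers was 3725 to 4307 (median 4039.7) CPM at 10 and 3702 to 4699 (median 4285) CPM at 18 months, with 1 of 6 called up, and 2 of 7 neuron markers were called down. Their part in the changes of Hspb1, Hspa4l and Hsph1 was not tested.

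The ageing effect of Hspb1 differed between cord and muscle, the 1 of 69 members for which it did, where 2.61% of all genes did. The difference was 0.64 ± 0.184 (SE), adjusted p = 0.0399, set against log2 fold changes in muscle of -0.31 ± 0.169 (SE), adjusted p = 0.557 in gastrocnemius and -0.44 ± 0.171 (SE), adjusted p = 0.277 in quadriceps. In muscle Hspb1 was highest in library 3.1 at 10 months, with 268 CPM in gastrocnemius (131 next) and 325 CPM in quadriceps (135 next). Without the libraries standing apart, the difference was 0.31, adjusted p = 0.272.

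The DnaJC, Hsp90, chaperonin and binding protein genes held 0 called members in the ageing and exercise comparisons of any tissue. Of all genes, 0.153%, 0.352% and 5.35% were called with age in gastrocnemius, quadriceps and cord, and 0.106%, 0.757% and 0% with exercise. In ageing cord 7 of 25 DnaJC genes and 26.3% of all genes had an unadjusted p under 0.05. The 0 called thus does not set these families apart from other genes. The DnaJC genes, which place Hsp70 at particular sites such as vesicles, mitochondria or the spliceosome, numbered 24 tested in gastrocnemius, 24 in quadriceps and 25 in cord. With age their log2 fold changes ran from -0.19 to 0.05 in gastrocnemius, -0.22 to 0.04 in quadriceps and -0.18 to 0.14 in cord. With exercise they ran from -0.11 to 0.10, -0.19 to 0.13 and -0.15 to 0.11. With age the DnaJB genes spanned a wider range in each tissue, -0.30 to 0.20, -0.42 to -0.03 and -0.19 to 0.45. In cord the median absolute change was nonetheless close, 0.084 for DnaJB and 0.076 for DnaJC genes. Hsp90 genes ran from -0.31 to 0.02 with age in quadriceps and the chaperonin pair from -0.25 to -0.13. In cord, Hsp90aa1 had -0.15 ± 0.0484 (SE), adjusted p = 0.0603 with age and was not called.

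Exercised 18-month and sedentary 10-month mice differ in both age and activity. This comparison shares its libraries with the ageing and exercise contrasts, so its values stand beside theirs and do not add to them. In quadriceps 12 of 66 members were called, 4 up and 8 down, where 11.1% of all genes were. Cryab (0.35 ± 0.0813 (SE), adjusted p = 0.00536) and Dnaja4 (0.34 ± 0.072 (SE), adjusted p = 0.00195) were higher, as were Hspa2, an Hsp70 best known from spermatocytes (0.40 ± 0.111 (SE), adjusted p = 0.0157), and Hspb3 (0.20 ± 0.0638 (SE), adjusted p = 0.0343). Hspa2 had 4.03, 5.41 and 6.46 CPM at 10 months and 3.9, 7.24 and 9.21 CPM in exercised mice.

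Among the 8 lower members in quadriceps, Dnajc13, an endosomal protein that recruits Hspa8, had 35.1, 37.1 and 49.1 CPM at 10 months and 25.9, 32.2 and 35.5 CPM in exercised mice. All 12 exercised libraries lay below the 10-month median and 11 below every 10-month library (-0.29 ± 0.0633 (SE), adjusted p = 0.00328). Dnajc3 (p58IPK), which serves BiP and restrains the kinase PERK, went from 39.8, 44.7 and 50.1 CPM to 31.9, 39.4 and 43.7 CPM (-0.24 ± 0.055 (SE), adjusted p = 0.00457). Dnajb5 went from 177, 194 and 214 CPM to 139, 159 and 205 CPM (-0.23 ± 0.0603 (SE), adjusted p = 0.0129). Dnajb4 had -0.42 ± 0.091 (SE), adjusted p = 0.00274 and Dnaja1 -0.30 ± 0.0871 (SE), adjusted p = 0.0218. The groups overlapped for each of these 5 genes.

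Single 10-month libraries carried part of the other 3 falls too. Dnajb2, a cochaperone of neurons and muscle that sorts clients to the proteasome, had -0.42 ± 0.135 (SE), adjusted p = 0.0401, and -0.15, adjusted p = 0.0321 without library 3.1. Hspa1b had 2.2, 3.09 and 12.3 CPM at 10 months (6.04 next to highest) and 1.47, 1.86 and 3.94 CPM in exercised mice, with a fitted change of -0.91 ± 0.238 (SE), adjusted p = 0.0121. Without library 2.3 it was -0.54, adjusted p = 0.0457. Hspa1a had -0.67 ± 0.222 (SE), adjusted p = 0.0456, and -0.45, adjusted p = 0.135 without 2.3. Without 3.1 it was -0.55, adjusted p = 0.0994. Its call was lost in 20 of 31 fits that left out 1 library (log2 fold changes -0.81 to -0.45, highest adjusted p = 0.135). That of Dnaja1 was lost without 2.3 alone, that of Hspb3 in 5 of 31 such fits and that of Dnajb2 in 10 of 31. The 12 heat-inducible genes had a median of -0.29 with 11 fitted down and 4 called, and of -0.14 without 3.1. Of all 66 tested members 48 were fitted down, and 47.2% of all genes were fitted up.

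In gastrocnemius 2 of 66 members were called in this comparison, both down, where 6.73% of all genes were. Dnajb12, a membrane cochaperone of the endoplasmic reticulum, had 23.5, 31.4 and 59.1 CPM at 10 months and 23.6, 26.7 and 30.04 CPM in exercised mice, with 13 of 13 below the 10-month median (-0.32 ± 0.0859 (SE), adjusted p = 0.0221). Without 3.1 and 2.2 it was -0.23, adjusted p = 0.00206. Dnajb2 had -0.39 ± 0.123 (SE), adjusted p = 0.0489, with a highest 10-month library (3.1) of 215 CPM and 103 CPM next. Without 3.1 and 2.2 it was -0.10, adjusted p = 0.192.

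In cord 3 of 68 were called, all down, where 1.51% of all genes were. Hspa1b had 2.33, 3.45 and 11.7 CPM at 10 months and 1.4, 2.36 and 3.34 CPM in exercised mice, with 13 of 13 below the 10-month median (-0.88 ± 0.197 (SE), adjusted p = 0.0133). Its highest 10-month library was 2.3, with 5.04 CPM next, and without it the value was -0.57, adjusted p = 0.0479. Hsph1 had -0.17 ± 0.0419 (SE), adjusted p = 0.0237, and -0.13, adjusted p = 0.0532 without 2.3 (its call was also lost without 1.2). Hspa5 had 285, 306 and 377 CPM and 238, 268 and 313 CPM (-0.21 ± 0.0553 (SE), adjusted p = 0.0389), and lost its call in 14 of 33 fits that left out 1 library.

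Several of these results turned on libraries in which the stress-inducible members were high together, and the promoters of those members were read for the heat shock element. Sequences came from RefSeq on GRCm38.p6, from 250 bases before to 50 after each start, and 59 of the 73 members had an entry. The letters searched were GAANNTTC and TTCNNGAA, a pair of facing units, each of which is its own reverse complement, so that both strands are covered. They occurred in 15 of the 59 members (25.42%) and in 16.97% of 27025 genes. With 3 units (GAANNTTCNNGAA or TTCNNGAANNTTC), they occurred in 4 members, Dnajb6, Hspd1, Hspe1 and Hsph1, and in 0.66% of genes. With 4 units (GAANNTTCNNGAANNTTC or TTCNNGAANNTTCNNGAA), each longer motif holding the shorter ones, they occurred in 2 members, Hspd1 and Hspe1, and in 0.03% of genes. Of the 12 heat-inducible genes 8 had an entry and 7 held a pair of units, Dnajb1 being without. The stretches that carry the units in the genes high in those libraries, in the chaperonin pair and in Dnajb4 and Dnaja4 are shown 5′ to 3′ on the gene's strand, with the matched letters in capitals.
Hspa1a (chr17:34972238-34972275, minus strand): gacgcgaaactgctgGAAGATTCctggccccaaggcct
Hspa1b (chr17:34959320-34959357, minus strand): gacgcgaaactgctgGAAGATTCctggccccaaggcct
Hspb1 (chr5:135887787-135887844, plus strand): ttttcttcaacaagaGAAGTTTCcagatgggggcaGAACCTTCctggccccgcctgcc
Hsph1 (chr5:149636356-149636375, minus strand): gaatctTTCTCGAAggctcg
Hsph1 (chr5:149636282-149636306, minus strand): tgcagaTTCTGGAAAGTTCtcctca
Hspd1 (chr1:55088053-55088082, minus strand): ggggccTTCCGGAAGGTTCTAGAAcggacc
Hspe1 (chr1:55088053-55088082, plus strand): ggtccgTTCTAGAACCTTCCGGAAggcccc
Dnajb4 (chr3:152193846-152193865, minus strand): tcgctgTTCTAGAAagtaca
Dnaja4 (chr9:54699463-54699482, plus strand): ctccgcGAACGTTCtgggcc
Dnaja4 (chr9:54699501-54699520, plus strand): ctggcgGAACCTTCcgccgg

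The matched letters began 104 bases before the start of Hspa1a and of Hspa1b, whose stretches are the same, and 117 bases before that of Hspb1, which held 2 pairs. Hspd1 and Hspe1 lie head to head on opposite strands, and the 4-unit run is 1 genomic site read on both strands. The second stretch of Hsph1 begins 15 bases past 1 of its starts, in an exon. The first stretch of Dnaja4 lies in an intron of a longer transcript and the second in an exon, and that of Dnajb4 in an intron of longer transcripts. A match describes letters only, and binding was not measured.

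Library 3.1, sedentary at 10 months, had the highest level of 27 of 66 members in gastrocnemius and 34 of 66 in quadriceps. It was also the library farthest from its tissue's mean over all genes. Its root mean square deviation was 0.715 log2 units in gastrocnemius (median of libraries 0.266) and 0.772 in quadriceps (0.28). The share of all genes highest in 3.1 was not computed, so these counts do not set the members apart from other genes. In gastrocnemius Hsph1 stood at 268 CPM (115 in the next library of its group), Hsp90ab1 at 2829.5 (1556) and Hspb7 at 953 CPM (542). In quadriceps Hsph1 stood at 285 CPM (162), Hsp90ab1 at 2836 (1528) and Hspb7 at 799 CPM (303). The same number was thus high in both muscles for constitutive and inducible members alike. In quadriceps 3.1 was at the same time the lowest library of its group for Hspb2, at 10.9 CPM.

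Library 2.3, also sedentary at 10 months, was the highest of its group for several inducible genes in quadriceps and in cord. In quadriceps it had 12.3 CPM of Hspa1b (6.04 next) and 12.7 CPM of Dnajb1 (7.88 next). In cord it had 11.7 CPM of Hspa1b (5.04 next), 70.7 CPM of Dnajb1 (58.1 next) and 356 CPM of Hsph1 (309.9 next). In all, 11 of 68 tested members had their highest cord level in 2.3, against 15 in 6.1 and 9 in 5.2. Libraries 6.1 and 5.2 lay farthest from the cord mean over all genes, and the shares of all genes were not computed.

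Gastrocnemius library 6.1, sedentary at 18 months, stood furthest out for Hsp70. It had 74.4 CPM of Hspa1b and 55.4 CPM of Hspa1a, where the next libraries of its group had 3.29 and 5.1 CPM. Dnajb1 stood at 24.7 CPM (5.95 next) and Hsp90aa1 at 86.1 CPM (39 next). This library set the sign of both gastrocnemius contrasts of the pair, neither of which was called. For Hspa1b the ageing value was 1.23 ± 0.582 (SE), adjusted p = 0.493, and -0.87, adjusted p = 0.293 without 6.1. The exercise value was -1.84 ± 0.549 (SE), adjusted p = 0.125, and 0.27, adjusted p = 0.688 without it. For Hspa1a ageing turned from 0.78 to -0.61, adjusted p = 0.475, and exercise from -1.15 to 0.25, adjusted p = 0.683.

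Red cell markers were high in some of the same libraries. Their summed level was 1228 CPM in gastrocnemius 6.1 (96.2 in the next library of its group) and 522 CPM in quadriceps 2.3 (122 next). They were also high in quadriceps 6.1, at 1002 CPM, and in cord 6.1, at 11150 CPM, where Hspa1a and Hspa1b were not the highest of their group. Their part in the levels of the inducible genes was not tested.

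**Figure D4:**
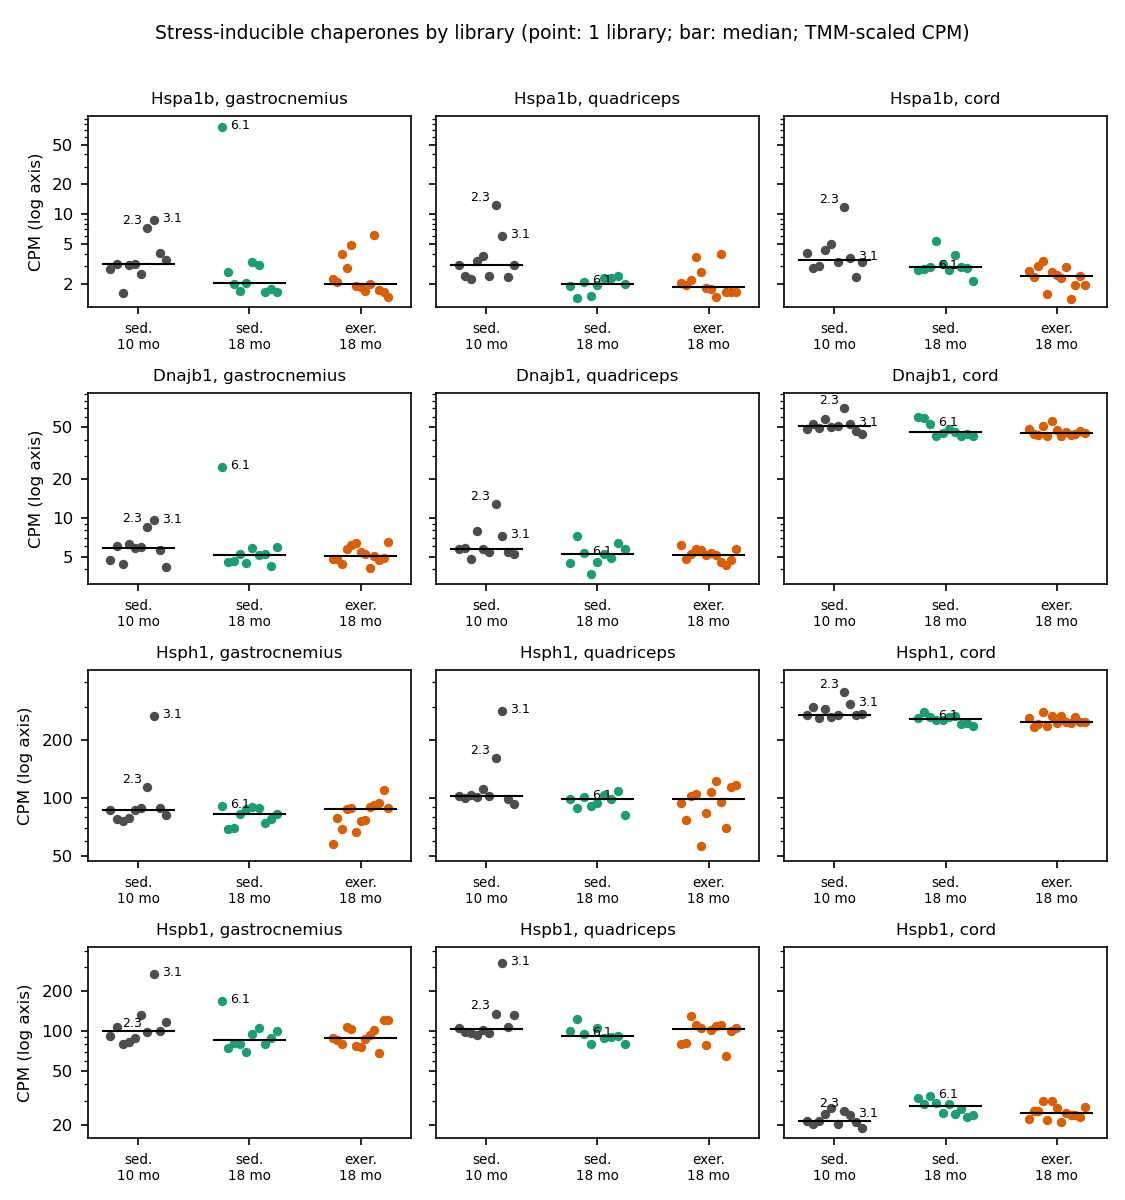
Hspa1b, Dnajb1, Hsph1 and Hspb1 in every library (points, TMM-scaled CPM on a log axis) by tissue and group, with numbers 2.3, 3.1 and 6.1 marked. Gastrocnemius 6.1 stands at 74.4 CPM of Hspa1b, and 3.1 is the highest muscle library for Hsph1 in both muscles.

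Deviations from the group mean were then compared between tissues for libraries with the same number, to ask whether inducible members vary with the number. For 8 genes and 3 pairs of tissues, 24 relations were computed with permutation within groups (100000 permutations, two-sided), and 9 had an adjusted p under 0.05 by Pearson's r and 11 by Spearman's rho. Over all genes, libraries with the same number also deviated together between the muscles in 28 of 31 pairs (correlation across genes over 0.1). For gastrocnemius and cord this held in 14 of 33 pairs, and for quadriceps and cord in 11 of 31. The share of all genes that would pass was not computed, so these counts do not set the 8 genes apart. Between gastrocnemius and quadriceps, Hsph1 had Pearson r = 0.83 (permutation p = 0.00018, adjusted p = 0.00144) and Spearman rho = 0.641 (permutation p = 0.00112, adjusted p = 0.00538) over 31 numbers. Leaving out the 2 numbers farthest out, 3.1 being 1 of them, r was 0.593. Hsp90aa1 had Pearson r = 0.66 (permutation p = 4e-05, adjusted p = 0.00048) and Spearman rho = 0.625 (permutation p = 0.00024, adjusted p = 0.00192) over 31 numbers, with r = 0.616 without the 2 farthest. For Hspa1b r rose from 0.446 (adjusted permutation p = 0.0018) to 0.726 without the 2 farthest, 6.1 being 1 of them, with rho = 0.5 (adjusted permutation p = 0.0132).

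Between quadriceps and cord, tissues with different cells, Dnajb1 had Pearson r = 0.798 (permutation p = 1e-05, adjusted p = 0.00024) and Spearman rho = 0.721 (permutation p = 3e-05, adjusted p = 0.00072) over 31 numbers. The p of r is the smallest that these permutations can give. Without the 2 farthest libraries r was 0.635. Hspa1b had Pearson r = 0.663 (permutation p = 0.00269, adjusted p = 0.00807) and Spearman rho = 0.536 (permutation p = 0.00333, adjusted p = 0.00999) over 31 numbers, and r was 0.308 without the 2 farthest, so much of it rests on them. Cryab, called in exercised quadriceps, had Pearson r = -0.0313 (permutation p = 0.879, adjusted p = 0.916) and Spearman rho = 0.173 (permutation p = 0.368, adjusted p = 0.465) over 31 numbers between the muscles, and r was 0.33 without the 2 farthest. Of the other 6 quadriceps and cord relations none passed by r, with r from 0.0422 for Hspa8 to 0.496 for Hsph1. Hspa1a, with 0.316, fell to 0.0216 without the 2 farthest. Between gastrocnemius and cord Dnajb1 alone passed by r, with Pearson r = 0.474 (permutation p = 0.0125, adjusted p = 0.0334) and Spearman rho = 0.657 (permutation p = 7e-05, adjusted p = 0.00084) over 33 numbers, and r was 0.683 without the 2 farthest. The r of the other 7 genes there ran from 0.0183 for Hspa8 to 0.389 for Hsph1.

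**Figure D5:**
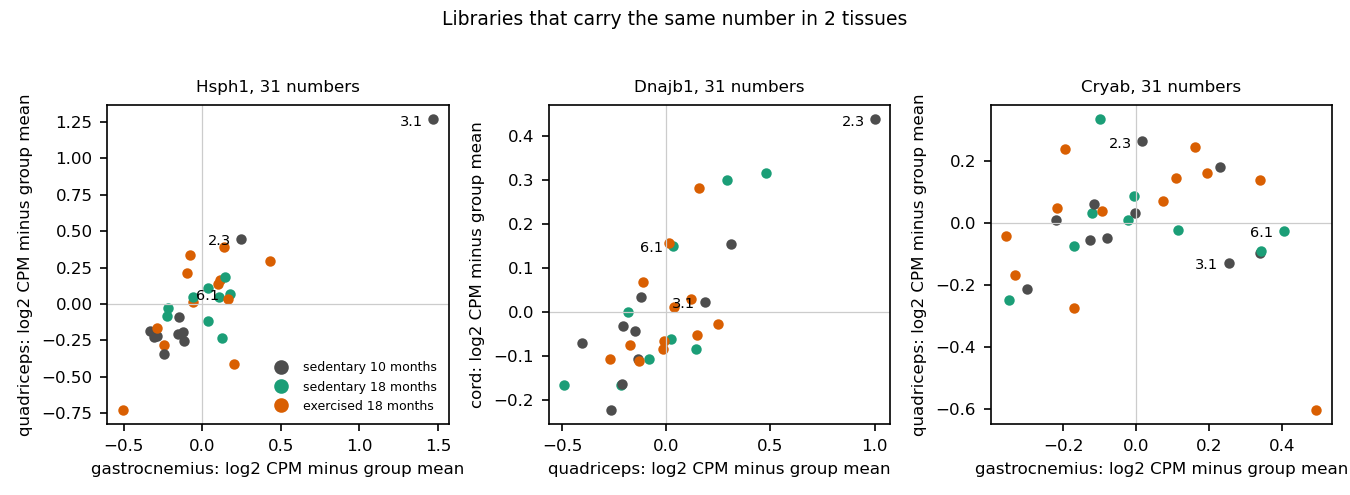
Deviation from the group mean (log2 CPM) of libraries with the same number in a pair of tissues, 1 point per number (31 each). Hsph1 between the muscles and Dnajb1 between quadriceps and cord run along the diagonal (r = 0.83 and 0.798), and Cryab between the muscles does not (r = -0.0313, and 0.33 without the 2 farthest numbers).

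Within a tissue, Hsph1 served as the reference for the other inducible members. Of 21 relations, 16 passed by r and 11 by rho after adjustment, and the share of all genes that would pass with Hsph1 was not computed. Hspa8 followed Hsph1 most closely in gastrocnemius, with r = 0.923 and rho = 0.884 over 33 libraries (adjusted permutation p = 0.000168 for r), and r = 0.833 without the 2 farthest. In quadriceps the closest was Hsp90aa1 (r = 0.787, rho = 0.699, r = 0.62 without the 2 farthest), and in cord Dnajb1 (r = 0.743, rho = 0.648, r = 0.603 without the 2 farthest). Cryab did not pass by r in any of the 3 tissues. These libraries share depth and scaling, and leaving out those that stand apart left 10 relations that passed.

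Of 61 listed genes of the pathway outside the symbol rule (heat shock factors, Bag and Hsp90 cochaperones, exchange factors and others), 56, 55 and 57 passed the filter in gastrocnemius, quadriceps and cord. With age 0 were called in either muscle. In cord 5.26% were called, near the 5.35% of all genes, and among those that fell were Ahsa2, an activator of Hsp90 (-0.20), and St13, which stabilises Hsp70 bound to ADP (-0.16). With exercise 0 were called in gastrocnemius and cord. In exercised 18-month against sedentary 10-month mice, the share of these genes called was 7.14% in gastrocnemius, 9.09% in quadriceps and 1.75% in cord, near the 6.73%, 11.1% and 1.51% of all genes. Hsf1, the heat shock factor, fell in gastrocnemius (-0.29), together with the myosin chaperone Unc45b (-0.23) and the exchange factors Bag5 (-0.18) and Bag6 (-0.19). In quadriceps Ppid, Unc45b, Bag5 and Cdc37l1 fell (-0.28, -0.28, -0.23 and -0.13). In cord Hyou1, an exchange factor of the endoplasmic reticulum, fell (-0.15). These are log2 fold changes with adjusted p under 0.05.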

How the data were processed

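Counts per gene were taken as deposited, as whole numbers that were not normalized, for 97 of the 99 labelled samples. Quadriceps 10.4 (sedentary) and 10.2 (exercised), both 18 months, were not analysed here. The TPM values are those the authors deposited, and were used for levels between genes and for families. The authors' deposited FPKM table was not used for any value here. The submitters' processing notes name STAR 2.5.2b and the build GRCm38.p5. Which program counted the reads, and with what strand setting, is not given in the sources used here, and the library kit (TruSeq RNA v2, per the labels' protocols) does not mark strand. All 97 libraries were mapped to a group by their titles, and 49 genes of the table have no symbol.

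The members and lists were chosen with earlier results of these data known. Genes were fitted over the whole table, 1 tissue at a time with all 3 groups, with edgeR 4.0.16 in R 4.3.3 (TMM factors, filterByExpr with minimum count 10 and minimum total count 15, quasi-likelihood F test, two-sided, Benjamini-Hochberg). Tissues were compared in joint fits without a term for the library number. Log2 CPM values used a prior count of 2. SEs came from the F statistic. Alternatives were DESeq2 1.42.0, limma 3.58.1 (voom with quality weights), RLE factors, no filter, a minimum count of 50, a fit of only the groups compared, the first part of the library number as a term, the number as a replicate block, leaving out each library, and leaving out those that stand apart. Scaling by library totals without factors was added after the data were seen. The test was checked on simulated counts.

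Genes named were 28 fixed ones, every member called within a tissue (the 10 smallest p where more), the 5 largest rises and falls between tissues, and every called member of the tissue differences. Dixon's ratio, below, was applied to the named members in groups of 4 to 10 libraries. Gene positions came from GENCODE M21 (GRCm38). Depth, 29.06 to 62.77 M counts per library, sets the counting error of low members such as Hspa1b, near 2 to 3 CPM. The results of 1 listed pathway gene outside the symbol rule are not reported here.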

Additional observations from a re-analysis of the deposited data

Results flagged for a closer look

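In 33 named members, 192 groups of 4 to 10 libraries were examined for a highest or lowest library whose gap to its neighbour, divided by the range of the group, exceeded Dixon's 95% critical value. The ratio did so in 64 groups (33.3%). The rule's chance rate of about 1 in 20 holds for normally distributed values. These were unlogged CPM of members that vary together, some of them named because they were called in these data. The share is therefore a description and not a test. Library 3.1 alone gave 15 flags as the highest in gastrocnemius, and 15 as the highest and 1 as the lowest in quadriceps. The groups of 12 and 13 exercised libraries are too large for this rule. The values below are TMM-scaled CPM.

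In 10-month gastrocnemius, library 3.1 was the highest by this ratio for Hspa8 (1528), Hspa9 (729), Hsph1 (268), Hsp90aa1 (72.9), Hsp90ab1 (2830), Hsp90b1 (159), Hspd1 (250), Hspb1 (268), Hspb7 (953), Dnajb4 (131), Dnajb6 (78.5), Dnajb9 (58.8), Dnajc5 (74.8), Dnajb12 (59.1) and Dnajb2 (215). Library 2.2 was the highest for Hspb2 (30.9) and Hspb3 (28.2), and 3.2 for Dnaja4 (124). In 10-month quadriceps, 3.1 was again the highest, for Hspa8 (1413), Hspa9 (720), Hsph1 (285), Hsp90ab1 (2836), Hsp90b1 (145), Hspe1 (68), Hspb1 (325), Hspb7 (799), Dnajb4 (130), Dnajb6 (67.1), Dnajb9 (61.6), Dnajc5 (63.9), Dnajb12 (61.4), Dnajb2 (237) and Dnajc13 (49.1). It was the lowest for Hspb2 (10.9). Library 2.3 was the highest for Hspa1b (12.3), Hspa4l (12.6), Dnaja1 (41.8) and Dnajb1 (12.7) in quadriceps, and for Hspa1a (11.7), Hspa1b (11.7), Hsph1 (356), Dnajb1 (70.7) and Dnajb4 (80) in cord.

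In sedentary 18-month gastrocnemius, 6.1 was the highest for Hspa1a (55.4), Hspa1b (74.4), Hspa5 (221), Hsp90aa1 (86.1), Hspb1 (167), Dnaja1 (34.7) and Dnajb1 (24.7). Library 9.3 was the highest for Hspb2 (24.4), while 8.2 was the lowest for Hsp90ab1 (1040) and 9.2 for Dnajc5 (52.1). In sedentary 18-month quadriceps, 6.1 was the highest for Hspa5 (213) and 5.2 for Hspb2 (25.1) and Hspb6 (1271). In sedentary 18-month cord, 5.2 was the lowest for Hspa9 (264), Hspa4l (141), Hsp90aa1 (642), Hsp90b1 (307), Dnaja1 (83), Dnajb4 (36.9) and Dnajb9 (21.5), and the highest for Dnajb5 (48.7).

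For 2 members an effect differed between tissues by a test of the difference itself in edgeR. The ageing effect of Hspb1 was higher in cord than in muscle by 0.64 ± 0.184 (SE), adjusted p = 0.0399 on the log2 scale. Without the libraries that stand apart it was 0.31, adjusted p = 0.272, and with no filter it was not called (adjusted p = 0.0573). The exercise effect of Cryab was lower in cord, with a difference of -0.51 ± 0.11 (SE), adjusted p = 0.00732.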

How the results depend on the processing

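Counts of called members changed by over 1.5 times as follows, with the count of the reported fit in parentheses. For exercise in gastrocnemius (0) there were 4 with limma and quality weights, 1 with only the groups compared, 1 without the libraries that stand apart and 4 with the first part of the number as a term. For exercised 18-month against sedentary 10-month gastrocnemius (2), limma gave 6, no filter 1, only the groups compared 0 and library totals 1. For ageing in quadriceps (1), DESeq2 and limma gave 2 each, and no filter, only the groups compared and library totals 0. For exercise in quadriceps (3), the first part of the number as a term gave 1. For ageing in cord (3), DESeq2 gave 9, limma 10, and only the groups compared and the fit without 5.2 and 6.1 gave 1 each. For exercised 18-month against sedentary 10-month cord (3), limma gave 10. Gastrocnemius against quadriceps (4) had 25 with limma and 15 without the libraries that stand apart. The ageing effect in cord against muscles (1) had 4 with limma, and 0 with no filter and without those libraries. The exercise effect in cord against muscles (1) had 7 with limma and 2 each with RLE factors, the stricter filter and library totals. Of the relations with Hsph1 (16), 10 passed without the libraries that stand apart. The cause was not tested. Shares of all genes called under these alternatives are not given here, so the counts do not set the members apart from other genes.

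With 1 library left out at a time, counts ran from 1 to 5 for exercised 18-month against sedentary 10-month gastrocnemius, 9 to 13 for the same in quadriceps and 1 to 3 in cord. They ran from 0 to 2 for ageing in quadriceps, 2 to 5 for exercise in quadriceps, 1 to 10 for ageing in cord, and 0 to 0 for ageing and exercise in gastrocnemius and exercise in cord. Cryab and Dnaja4 in exercised quadriceps and Hspb1 in ageing cord kept their calls in every such fit, while Hspb7 lost its call in 2 of 31 and Hspa1a in 20 of 31 (quadriceps, exercised 18 against sedentary 10 months).

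The sign of cord against muscles turned with library totals for 9 named members: Dnajb6 (0.51), Dnajb9 (0.42), Hsp90ab1 (0.14), Hspa1a (0.000232), Hspa1b (0.088), Hspa5 (0.89), Hspa8 (0.91), Hspd1 (0.091) and Hspe1 (0.039), with TMM values of -0.62, -0.71, -0.99, -1.12, -1.03, -0.25, -0.22, -1.04 and -1.10.

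Libraries with the same number deviated together between gastrocnemius and quadriceps in 28 of 31 pairs (correlation across genes over 0.1, median 0.272), and 23 correlated best with their own number. Between gastrocnemius and cord this held for 14 of 33 pairs and between quadriceps and cord for 11 of 31. Since not every pair exceeded 0.1 in any 2 tissues and the labels do not say what a number marks, the numbers were not taken to pair the libraries in the reported fits. With the number as a replicate block, 14 members were called between the muscles (4 without) and 63 between cord and muscles (62). There were 2 for the ageing effect in cord against muscles (1), 5 for the exercise effect (1), and 0 for both effects between the muscles. Shares of all genes under this block are not given here, so these counts do not set the members apart.

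Within a tissue the library number cannot be told apart from age, since first parts 1 to 3 occur at 10 months alone. Depth limits the members of the lowest counts, such as Hspb7 in cord, and reads shared between Hspa1a and Hspa1b limit both.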
